A study of Mus musculus with 16 samples.

Results

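Apolipoproteins are the protein part of the lipoprotein particles that carry cholesterol and triglyceride in plasma, and 10 genes that encode them in mouse liver were followed through open chromatin: Apoa1, Apoa2, Apoa4, Apoa5, Apob, Apoc1, Apoc3, Apoe, Apoh and Apom. They are 10 of the 22367 protein-coding genes of the annotation, and they were chosen by name and function, not by any measured value. Each gene was taken with 20 kb on either side, and every DNase hypersensitive site (DHS) that touched such a window was kept. Overlap by 1 bp or more joined peaks of the 4 lists into a region, which gave 58 regions of 51482 in the genome. Apoa1, Apoc3, Apoa4 and Apoa5 are neighbours on chromosome 9 and share 16 regions, while Apoc1 and Apoe are neighbours on chromosome 7 and share 13. A further 12 regions lay around Apoh on chromosome 11, 8 around Apoa2 on chromosome 1, 6 around Apob on chromosome 12 and 3 around Apom on chromosome 17. Windows of neighbouring genes overlap, so that the values of those genes are not independent of each other.

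The study asked which regulatory elements of mouse liver differ by sex, by strain, or by both. Liver nuclei came from male and female mice, 8 weeks old per the labels, of C57BL/6J (B6), a laboratory strain, and of CAST/EiJ (CAST), a wild-derived inbred strain. Nuclei of all 4 groups (male B6, female B6, male CAST and female CAST) were digested with 32 units of DNase I, an enzyme that cuts accessible DNA, and the released fragments were sequenced as 16 libraries, 4 for each group. The authors called DHS with MACS2 on the 4 pooled libraries of a group, so that each group has a single list, no spread between animals can be computed, and no difference between lists could be tested. No allele, transgene or drug distinguished the animals beyond strain and sex. A peak is described here by its fold enrichment, which is the number of fragments stacked at the summit (the summit pileup, plus 1) over a local background (plus 1), the pileup itself, the local background, and the width. The first is deposited, and pileup and local background were recovered from it and the deposited p-value. A promoter DHS is a region within 2.5 kb of an annotated transcription start site (TSS) of the gene. All coordinates are mm9 and counted from 1.

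As background, hepatocytes secrete most plasma apolipoproteins. The A group is carried mainly on high-density lipoproteins (HDL), Apob is the scaffold of very-low-density and low-density lipoproteins, Apoe is the ligand by which remnant particles are taken up through receptors, and the C group and Apoa5 set how fast lipoprotein lipase removes triglyceride. Genes of this kind are switched on in hepatocytes by the liver-enriched factors of the HNF4, HNF1, FOXA and CEBP families, which bind promoters and enhancers and keep them open to DNase I.

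The labelled tissue was checked by the promoters of marker genes. All 8 hepatocyte markers (among them Alb, Ttr and Cyp7a1) had a promoter DHS in all 4 lists, compared with 0 of 6 macrophage, 0 of 4 stellate cell, 1 of 4 endothelial (Stab2) and 1 of 4 bile duct markers (Sox9). Of 6 enterocyte markers, which matter because the intestine also makes apolipoproteins, 1 (Fabp2) did, and of 3 kidney, 3 exocrine pancreas and 2 muscle markers none did. Single lists held more of these promoter DHS. Of the 4 endothelial markers, 4 had one in B6 males, 3 in B6 females, 2 in CAST males and 1 in CAST females. One stellate marker (Reln) had it in every list but female CAST, and 1 macrophage marker (Csf1r) in CAST males. An exocrine pancreas marker (Ctrb1) had it in B6 females and CAST males, and a muscle marker (Myh4) in both male lists. In bulk nuclei a smaller share of nuclei with an open site and less opening per nucleus cannot be told apart. The lists held 24888 to 39562 peaks. The genome-wide background, which follows depth, was 15.4 reads in B6 males, 13.9 in B6 females, 14.3 in CAST males and 7.94 in CAST females, so that depth was lowest in the female CAST list, where an absent peak carries the least weight.

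Stretches that the results refer to are printed here, each from the B6 reference (mm9), 5′ to 3′, without annotated untranslated exons. Capitals mark matches, on either strand, to any of 5 short motifs of liver factors: HNF4 (CAAAGTCCA), HNF1 (GTTAAT), FOXA (TNTTTAC), CEBP (TTGCNNAA) and STAT5 (TTCNNNGAA). Each of the first 4 is the 300 bp around the summit of a DHS found in all 4 lists. They are the intergenic element between Apoa4 and Apoa5 that had the highest single pileup around the 10 genes, and the intronic Apoh element that had the highest single fold enrichment. The others are the promoter DHS of Apoa2 and of Apoe that ranked highest over the 4 lists together. Each of the last 4 is the 200 bp before a 5′ end, for Apoc3, Apob, Apoa5 and Apom, which span a strong promoter DHS, an intermediate DHS, a DHS missing in CAST females, and no DHS.
Apoa4-Apoa5 intergenic element, chr9:46064596-46064895, plus strand: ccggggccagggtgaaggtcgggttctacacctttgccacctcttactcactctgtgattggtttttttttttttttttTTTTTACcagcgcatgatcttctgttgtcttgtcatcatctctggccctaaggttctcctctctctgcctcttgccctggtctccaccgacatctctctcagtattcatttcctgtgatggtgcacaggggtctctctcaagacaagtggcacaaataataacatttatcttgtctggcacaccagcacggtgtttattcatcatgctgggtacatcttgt
Apoh intronic element, chr11:108246779-108247078, plus strand: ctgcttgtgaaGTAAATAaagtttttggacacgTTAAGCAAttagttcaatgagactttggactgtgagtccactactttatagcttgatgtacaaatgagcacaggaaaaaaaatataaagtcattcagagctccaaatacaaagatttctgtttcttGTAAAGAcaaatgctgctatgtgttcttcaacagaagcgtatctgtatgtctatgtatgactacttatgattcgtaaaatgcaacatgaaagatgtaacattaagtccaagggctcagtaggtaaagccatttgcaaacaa
Apoa2 upstream element, chr1:173154195-173154494, plus strand: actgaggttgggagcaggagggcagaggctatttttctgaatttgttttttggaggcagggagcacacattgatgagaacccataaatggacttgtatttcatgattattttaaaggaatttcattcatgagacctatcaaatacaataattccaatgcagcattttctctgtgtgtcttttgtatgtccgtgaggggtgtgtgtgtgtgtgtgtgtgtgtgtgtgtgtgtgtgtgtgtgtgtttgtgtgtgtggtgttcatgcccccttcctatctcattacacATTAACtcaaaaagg
Apoe upstream element, chr7:20286299-20286598, plus strand: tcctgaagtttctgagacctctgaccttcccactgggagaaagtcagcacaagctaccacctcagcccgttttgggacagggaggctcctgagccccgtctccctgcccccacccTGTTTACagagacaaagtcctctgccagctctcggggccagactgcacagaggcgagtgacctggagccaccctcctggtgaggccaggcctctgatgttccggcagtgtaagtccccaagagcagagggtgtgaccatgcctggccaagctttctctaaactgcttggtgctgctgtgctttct
Apoc3, before its 5′ end, chr9:46043720-46043919, minus strand: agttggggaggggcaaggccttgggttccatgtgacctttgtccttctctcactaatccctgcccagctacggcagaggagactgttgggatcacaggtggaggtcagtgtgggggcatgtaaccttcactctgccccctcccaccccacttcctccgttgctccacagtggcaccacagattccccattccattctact
Apob, before its 5′ end, chr12:7984254-7984453, plus strand: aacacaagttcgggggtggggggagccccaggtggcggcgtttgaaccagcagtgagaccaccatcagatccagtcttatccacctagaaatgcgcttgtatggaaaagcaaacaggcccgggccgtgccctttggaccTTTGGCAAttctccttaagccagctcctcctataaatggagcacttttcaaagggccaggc
Apoa5, before its 5′ end, chr9:46076516-46076715, plus strand: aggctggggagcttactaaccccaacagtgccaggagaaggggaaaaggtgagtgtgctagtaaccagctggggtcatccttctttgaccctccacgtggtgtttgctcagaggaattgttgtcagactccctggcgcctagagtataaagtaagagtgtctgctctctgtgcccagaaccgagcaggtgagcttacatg
Apom, before its 5′ end, chr17:35268996-35269195, minus strand: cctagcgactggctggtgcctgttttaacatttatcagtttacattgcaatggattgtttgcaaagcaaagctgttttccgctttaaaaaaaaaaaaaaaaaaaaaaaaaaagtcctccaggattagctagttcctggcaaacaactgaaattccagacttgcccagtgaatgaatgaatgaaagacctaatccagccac

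The Apoh element held 2 FOXA matches and 1 CEBP match, the Apoa4-Apoa5 element and the Apoe element 1 FOXA match each, the Apoa2 element 1 HNF1 match, and the Apob stretch 1 CEBP match. The FOXA match of the Apoa4-Apoa5 element lies at the end of a run of T. No listed motif stood in the stretches before Apoc3, Apoa5 and Apom. Over all 58 regions around the apolipoprotein genes, the 300 bp at the summit held an HNF4 match in 1.72% (all regions 1.68%), an HNF1 match in 10.3% (10.5%), a FOXA match in 13.8% (16.6%), a CEBP match in 17.2% (17.2%) and a STAT5 match in 8.62% (10.2%). These shares were close to those of all 51482 regions. Of 22380 stretches of 200 bp before a protein-coding gene, 0.335% held the HNF4 motif, 4.38% HNF1, 7.78% FOXA, 7.20% CEBP and 5.49% STAT5. A match is a description of letters, and the absence of one says nothing about whether a factor binds.

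The 10 genes had more DHS around them than most genes. Their windows held a median of 10 regions, against 2 for all protein-coding genes (upper quartile 5), from 3 at Apom and 6 at Apoa5 and at Apob to 12 at Apoc1, Apoe and Apoh. Windows are longer for long genes, and Apoh (71043 bp) and Apob (39188 bp) are the longest of the members. Of the 58 regions, 49 were found in B6 males, 40 in B6 females, 53 in CAST males and 36 in CAST females. A region was found in all 4 lists in 32 cases, or 55.2%, compared with 35.6% of all regions and 38.1% of regions within 20 kb of any protein-coding gene. This excess was lost among strong peaks: at or above the median −log10 q of all lists, 12 of 39 regions (30.8%) were in all 4 lists, against 34.1% of all regions. A further 9 were found in 3 lists, 6 in 2 lists and 11 in a single list. Of the regions near a TSS of a member, 12 of 18 were in all 4 lists. The same held for 12 of 18 near a TSS of another gene and for 8 of 22 distal ones. This split was not computed for all regions, so that these shares have no background beside them. Whether the share of 55.2% follows from the number of promoters in these windows was not tested. By the place of the summit, 21 regions were intergenic, 20 intronic, 8 in coding exons, 8 in untranslated exons and 1 in a non-coding gene.

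A promoter DHS was found in all 4 lists for 8 of the 10 genes, where 44.1% of protein-coding genes had one. Among strong peaks alone (the median −log10 q of all lists or above) 4 of the 10 had one, Apoa1, Apoa2, Apoc3 and Apoh, against 27.5% of protein-coding genes, and within 1 kb of a TSS 6 did, against 42.5%. For Apoa1 the count rests on a region at the 3′ end of the gene. The exceptions were Apoa5, whose promoter DHS was not listed in CAST females, and Apom, which had no region within 2.5 kb of its TSS in any list. Under the stricter reading that the region itself must cover a TSS, 5 of the 10 qualified (Apoa2, Apoa4, Apob, Apoc3 and Apoh), against 40.6% of protein-coding genes. This count is by joined region, and at Apoa4 not every list's own peak reached the TSS. The strongest promoter DHS of a gene is the one that ranked highest by fold enrichment over the 4 lists together, so that another may be higher in a single list. The plot of promoter DHS sets its fold enrichment beside its pileup.

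**Figure D1:**
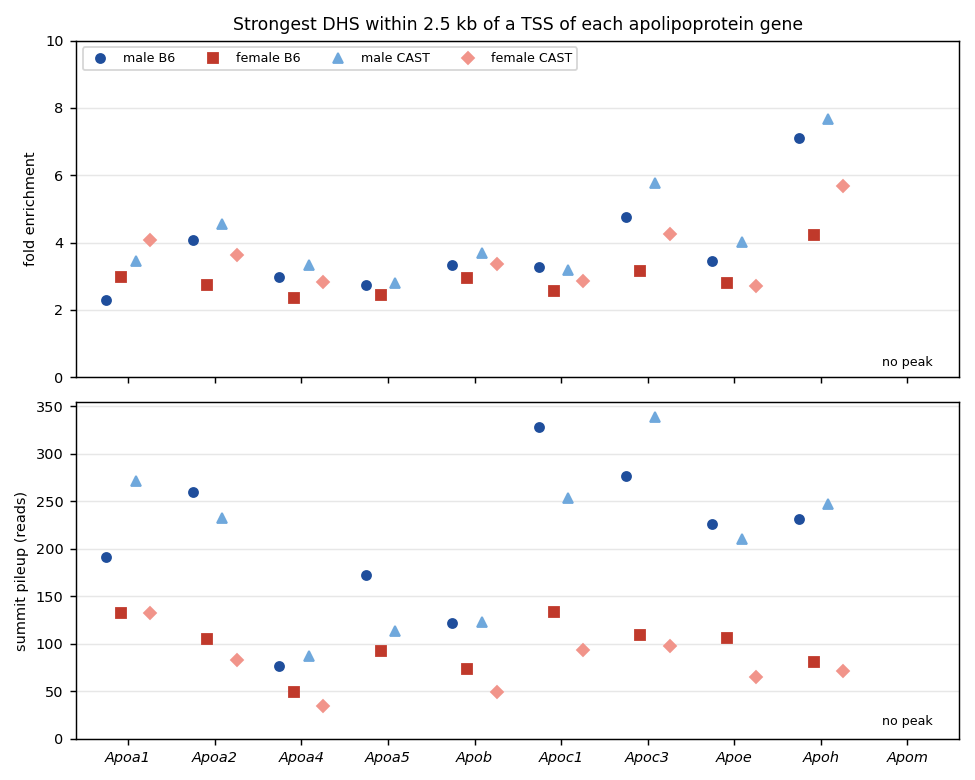
Fold enrichment (top) and summit pileup in reads (bottom) of the strongest DHS within 2.5 kb of a TSS, for each apolipoprotein gene in the male B6 (circle), female B6 (square), male CAST (triangle) and female CAST (diamond) lists. Apoh and Apoc3 have the highest fold enrichments, Apom has no peak, and male pileups lie above female ones of the same strain.

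Among the HDL proteins, Apoa1, the main one and the activator of the cholesterol-esterifying enzyme LCAT, had a weak DHS over its TSS and a broader region at the 3′ end of the gene. The TSS region (chr9:46036597-46037063) was listed in the male lists alone. Its fold enrichment was 2.00 in B6 males and 1.65 in CAST males, the lowest 3.42% and 0.168% of those lists. Its pileup was not low: 173 and 139 reads put it at percentiles 80.3 and 73.6. The local background was 86.0 and 83.8 reads, 5.60 and 5.88 times the genome-wide value, which is the denominator of the fold enrichment. The broader region (chr9:46037915-46039477) covers coding sequence and the end of the gene, and was found in all 4 lists. Its fold enrichment was 2.30 in B6 males, 2.98 in B6 females, 3.45 in CAST males and 4.07 in CAST females. The pileups were 191, 132, 271 and 132 reads in the same order. The summit was not the same in all lists: it lay 1554, 1616 and 1542 bp from the 5′ end in B6 females, male CAST and female CAST and 2531 bp from it, past the 3′ end, in B6 males, so that ratios to male B6 at this region compare different summits.

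Apoa2, the other major HDL protein, had its strongest DHS upstream rather than over the TSS. The upstream element (chr1:173153866-173154510, intergenic, sequence above) had a fold enrichment of 4.09 in B6 males, 2.75 in B6 females, 4.54 in CAST males and 3.62 in CAST females, with pileups of 260, 105, 232 and 83 reads. Its summits lay within 51 bp of each other, in the highest-scoring list at 840 bp before the 5′ end. The region over the TSS (chr1:173154894-173155556) was lower in each list, at 2.72, 2.04, 2.15 and 2.61. Apoa2 also shares its window with Nr1i3, which encodes the nuclear receptor CAR, and with Tomm40l and Fcer1g, and the promoters of these genes account for 5 of its 8 regions.

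Apob, which forms the particle body of very-low-density lipoprotein and stays with it until uptake, had a DHS at its 5′ end in all 4 lists (chr12:7984108-7985824) and little else. Summits lay 48, 49, 58 and 81 bp into the gene. The fold enrichment at those summits was 3.32 in B6 males, 2.81 in B6 females, 3.70 in CAST males and 3.37 in CAST females. In 3 lists MACS2 called a separate peak about 1 kb further in, at 890 bp in B6 females (2.95), 1163 bp in CAST males (2.79) and 1011 bp in CAST females (3.20), which male B6 held as 1 peak with the TSS peak. Of the other 5 Apob regions none was found in all lists. Regions 19.5 kb upstream and 43.5 kb downstream of the 5′ end were in both male lists, 2 were in CAST males alone and 1 in CAST females alone.

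Apoe, the receptor ligand of remnant particles, had a DHS over its TSS in 3 lists and a stronger one upstream in all 4. The upstream element (chr7:20285705-20286765, intergenic, sequence above) had a fold enrichment of 3.46 in B6 males, 2.78 in B6 females, 4.03 in CAST males and 2.71 in CAST females, with pileups of 226, 106, 210 and 65 reads. The TSS region (chr7:20284184-20284764) reached 2.56, 2.15 and 2.28 and was not listed in CAST females. In the last coding exon a further region (chr7:20281699-20282364) was not listed in B6 males, where the pileup needed for a call was not computed. It reached 1.95 in B6 females, 1.66 in CAST males and 3.18 in CAST females, the last above the upstream element. Its pileups in those lists were 110, 150 and 112 reads, on a local background 4.01, 6.32 and 4.35 times the genome-wide one. It was the only region of the 58 found in every list but male B6, a pattern singled out after its values were seen and shown by 0.305% of all regions.

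Apoc1, the small protein encoded next to Apoe that slows receptor uptake of remnants, was flanked by DHS in all lists, but a DHS over its TSS (chr7:20277199-20278279) was listed only in the male ones, at 1.74 in B6 males and 2.46 in CAST males. Upstream regions centred 940 bp and 2005 bp before the 5′ end were in all 4 lists. The nearer had fold enrichments of 2.84, 2.66, 2.85 and 2.33, and the farther 3.28, 2.55, 3.17 and 2.85. The farther one (chr7:20279605-20280451) had pileups of 328, 134, 254 and 94 reads over a local background of up to 6.46 times the genome-wide value, the highest among the regions of these genes.

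**Figure D2:**
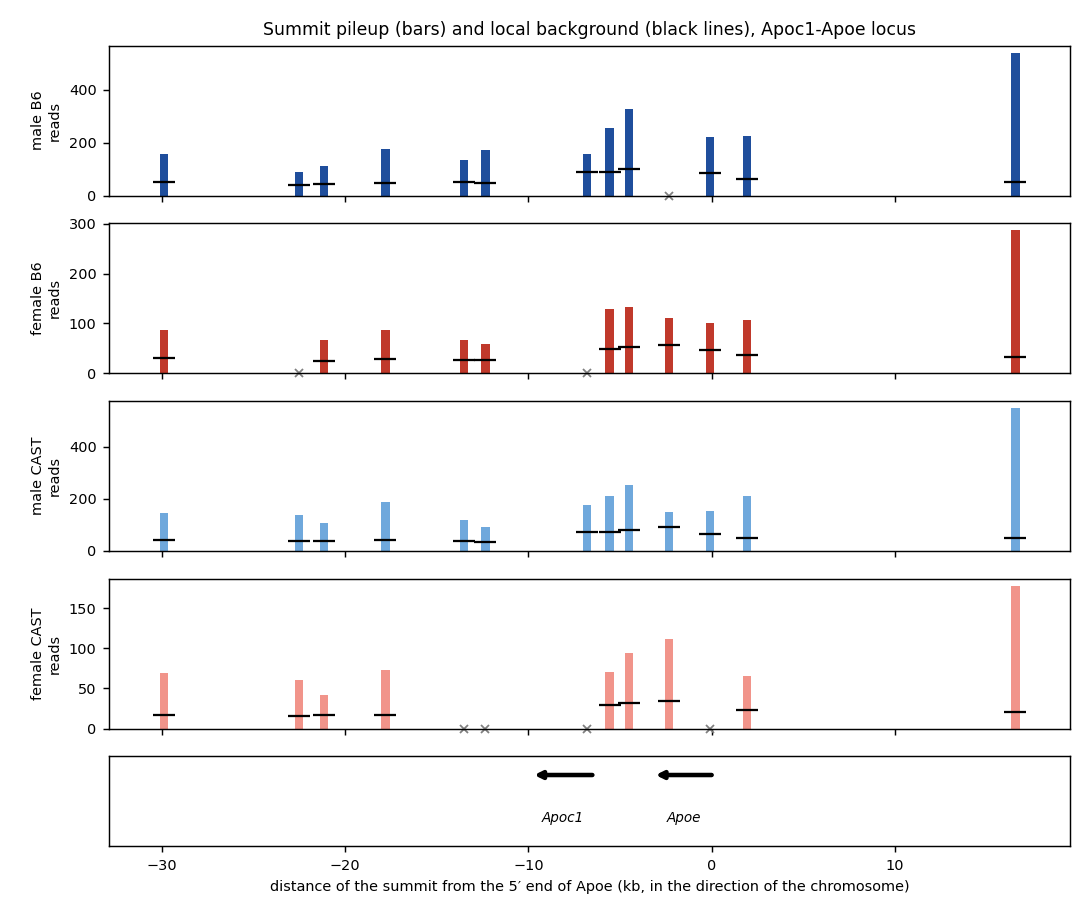
DHS around Apoc1 and Apoe, 1 panel per list: bars give the summit pileup in reads at the distance in kb from the 5′ end of Apoe, black lines the local background, grey crosses regions with no peak in that list, and arrows the genes. The tallest bar in each panel is the Tomm40 promoter, while the bars over Apoc1 and Apoe stand on the highest background, and the vertical scale differs between panels.

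Apoc3 inhibits lipoprotein lipase and so slows the removal of triglyceride. With 1 DHS counted per gene, it had, by fold enrichment, the second highest promoter DHS of the 10 genes in each list (chr9:46043165-46043934). The Apoh regions at the 5′ end and beside the internal TSS were also above it in both B6 lists. The Apoc3 fold enrichment was 4.77 in B6 males, 3.16 in B6 females, 5.78 in CAST males and 4.25 in CAST females. The pileups were 277, 109, 339 and 98 reads, above those of the strongest Apoh promoter DHS, so that the order of these genes depends on the scale. All 4 summits lay 15 to 69 bp into the gene, so that this DHS sits on the TSS itself, beside the stretch printed above. Apoa4, a protein of chylomicrons and HDL, is encoded next to it in the opposite direction and had a weaker region (chr9:46048740-46050028) at 2.97, 2.35, 3.33 and 2.81, with pileups of 77, 49, 87 and 35 reads. In female CAST the Apoa4 peak did not reach the TSS: it began 607 bp from the 5′ end and its summit lay 1109 bp in, against 96 to 183 bp in the other lists.

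Apoa5, which favours lipoprotein lipase and lowers plasma triglyceride, had a modest promoter DHS (chr9:46076273-46076945) at 2.75 in B6 males, 2.43 in B6 females and 2.80 in CAST males. No peak was listed in CAST females. At the local background of the nearest peak of that list, 3609 bp away, a pileup of 36 reads would have been needed for a call, and the 3 other lists held 172, 92 and 113. At regions found in all 4 lists, female CAST pileups were a median of 0.73 times those of B6 females. Male CAST pileups were 2.55 times the female CAST ones. The background at the site was 61.93, 37.21 and 39.75 reads in the other lists, against 19.48 at that nearest peak. Whether the site is closed in CAST females was not tested. The stronger elements of this gene were distal. The intergenic element between Apoa4 and Apoa5 (chr9:46064099-46065432, 11970 bp upstream of Apoa5, sequence above) had a fold enrichment of 7.45 in B6 males, 6.69 in B6 females, 6.71 in CAST males and 6.27 in CAST females. Its pileups of 650, 313, 505 and 188 reads stood at percentiles 99.1, 98.9, 98.1 and 96.9 of their lists, on a local background 5.63, 3.30, 5.22 and 3.67 times the genome-wide one. The 4 summits lay within 79 bp of each other and the widths were 1213, 1214, 1328 and 1263 bp, so that it differed little between lists in position and extent. Another intergenic region 7.2 kb upstream of Apoa5 (chr9:46069215-46069771) had 4.12, 3.56, 4.76 and 3.79.

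**Figure D3:**
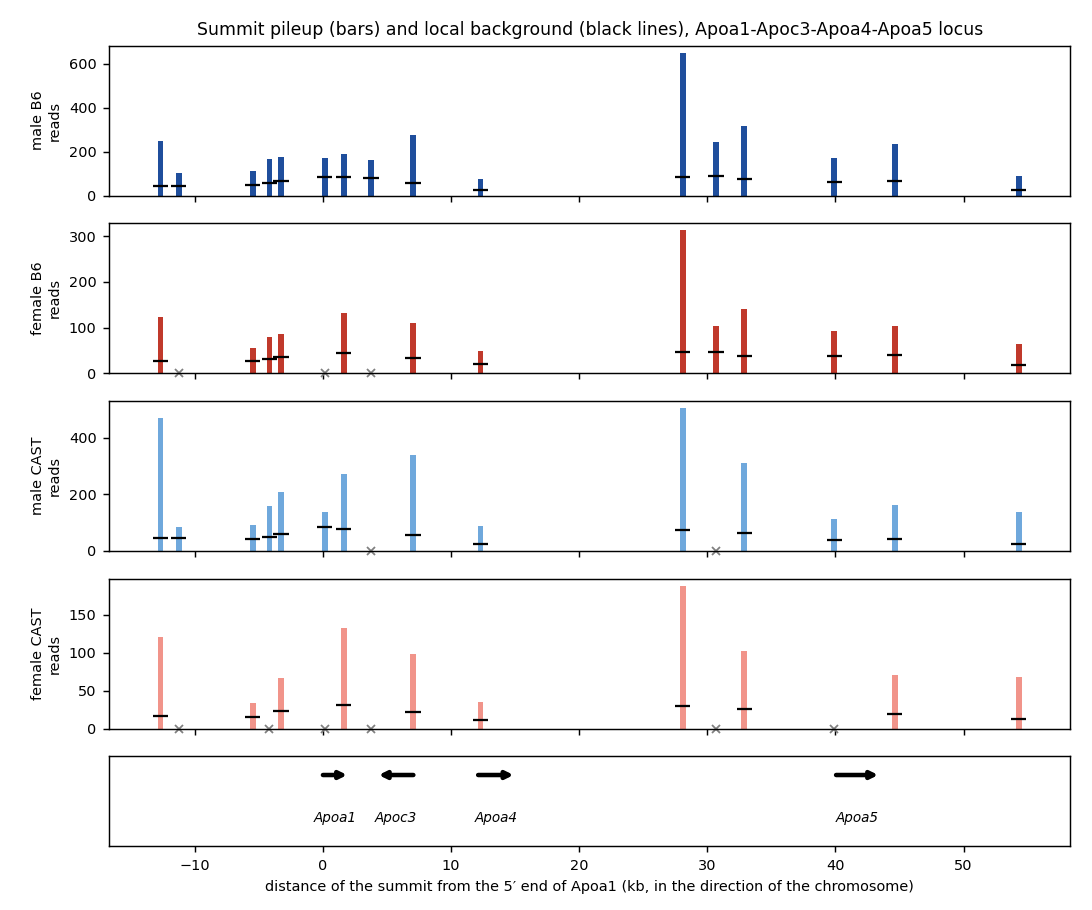
DHS around Apoa1, Apoc3, Apoa4 and Apoa5, 1 panel per list: bars give the summit pileup in reads at the distance in kb from the 5′ end of Apoa1, black lines the local background, grey crosses regions with no peak in that list, and arrows the genes. The intergenic element between Apoa4 and Apoa5 is the tallest bar in each panel, the local background rises at Apoa1 and around that element, and the vertical scale differs between panels.

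Apoh, a plasma glycoprotein that binds negatively charged phospholipid, had the highest promoter fold enrichments of the 10 genes in each list and the lowest median local background of the 6 loci. The strongest promoter DHS lay at an annotated internal TSS (chr11:108255795-108256917, intronic, 51.8 kb from the 5′ end). It had a fold enrichment of 7.12 in B6 males, 4.22 in B6 females, 7.66 in CAST males and 5.67 in CAST females, with pileups of 231, 81, 247 and 71 reads. A neighbouring region (chr11:108257172-108257998) had 5.59, 3.96, 3.71 and 3.31. The region at the 5′ end itself (chr11:108204192-108205746), which also covers a TSS of Prkca, had 5.21, 3.20, 4.58 and 3.05, and in CAST females its highest peak was a separate one that ended 60 bp before the 5′ end. The intronic element printed above (chr11:108246252-108247309) lay 42.3 kb from the 5′ end, but 3769 bp from the nearest annotated TSS of Apoh. It had 11.6, 4.96, 7.60 and 6.15, with pileups of 235, 73, 145 and 54 reads. The male B6 value was the highest fold enrichment among all regions of the 10 genes.

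Apom, a lipocalin carried on HDL, had no promoter DHS. The nearest region lay 2786 bp from a TSS of the gene. Its window held 3 regions, all in all 4 lists and all near a TSS of other genes, of which the promoter of Bag6 (chr17:35271781-35272740) was the strongest at 9.61, 8.21, 10.7 and 9.70. At the local background of that nearest peak, about 3.3 kb from the 5′ end of Apom, a call would have needed a pileup of 71 reads in B6 males, 50 in B6 females, 65 in CAST males and 35 in CAST females. At the genome-wide background 30, 29, 28 and 19 reads would have sufficed, and a region 3773 bp from a TSS of Apom was called at 77, 45, 51 and 28 reads on a lower background than that of the nearest peak. The lists do not give the background at the Apom TSS itself, so that the pileup a site needs there is not known more closely.

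The apolipoprotein regions stood on a raised local background. A background of at least 2 times the genome-wide value was found for 67.3% of their peaks in B6 males, 51.2% in B6 females, 63.6% in CAST males and 52.5% in CAST females, compared with 21.6%, 8.16%, 21.1% and 14.1% of all peaks of those lists. The median background was 3.17, 2.04, 2.69 and 2.04 times the genome-wide one, against 1.33, 1.23, 1.30 and 1.29 for all peaks. This was a matter of locus. At Apoc1-Apoe 12 of 12, 8 of 11, 13 of 13 and 9 of 9 peaks reached the limit, and at Apoa1-Apoc3-Apoa4-Apoa5 14 of 16, 9 of 13, 12 of 14 and 7 of 10, while at Apoh 2 of 8, 0 of 6, 2 of 11 and 0 of 7 did. Peaks of a locus share their background, so that these are a few loci and not independent peaks. The study's methods describe peak calling against input DNA for ChIP-seq and DNase-seq together, and whether the background of these lists came from input DNA or from the DNase-seq reads around each peak is not spelled out.

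The raised background separated the measures of strength. By fold enrichment the median apolipoprotein peak ranked at percentile 39.8 in B6 males, 32.6 in B6 females, 43.3 in CAST males and 31.1 in CAST females. By pileup it ranked at 79.9, 71.3, 69.0 and 65.3, and by q-value at 61.0, 52.5, 55.3 and 53.2. Thus the same peaks were below the middle of their list on one scale and above it on the others. Median widths were 690, 547, 627 and 552 bp, against 596, 554, 589 and 531 bp for all peaks.

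**Figure D4:**
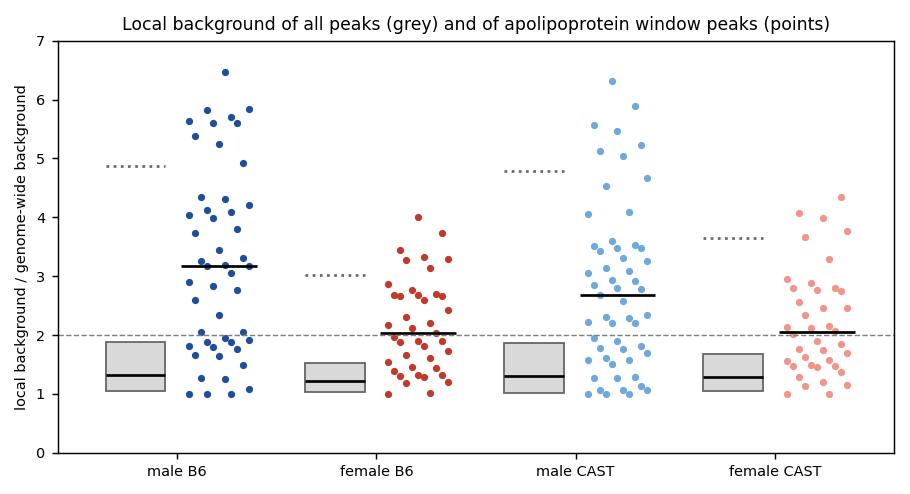
Local background of each peak around the 10 apolipoprotein genes, as a multiple of the genome-wide background of its list (points, with the median as a black line), beside all peaks of that list (grey box, quartiles and median; dotted line, the 99th percentile). The dashed line marks 2 times the genome-wide value, which most points exceed in each list while the grey boxes lie below it.

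The comparison of the sexes was made within each strain. Around the 10 genes there were 1.23 times as many male as female regions in B6 and 1.47 times as many in CAST, compared with 1.49 and 1.61 over all regions. This order turned among strong peaks (the median −log10 q of all lists or above), where the ratios were 1.94 and 2.19 around the 10 genes and 1.86 and 2.03 over all regions. In both strains 5 of the 58 regions were found in males alone, where 9.38% of all regions were, and 0 in females alone, where 0.0622% were. The share of 5 in 58 is close to the background. The 5 were the TSS regions of Apoa1 and Apoc1, an intronic region of Sik3 11.3 kb upstream of Apoa1, and the regions 19.5 kb upstream and 43.5 kb downstream of the 5′ end of Apob. At the Apoa1 TSS a female peak would have needed 68 reads in B6 and 53 in CAST at the background of the nearest peak, instead of the 29 and 19 that suffice at the genome-wide background. At the Apoc1 TSS it would have needed 74 and 50 reads. The corresponding male pileups were 173 and 139 at Apoa1 and 156 and 178 at Apoc1, in lists whose pileups at regions found in all 4 lists were a median of 1.91 times (B6) and 2.55 times (CAST) the female ones. Whether these sites are closed in females or lie under that limit was not tested.

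For the 32 regions found in all lists, ratios were centred on the median ratio of the 18309 such regions of the genome, which was 1.34 for male over female fold enrichment in B6 and 1.20 in CAST. The centred log2 ratios ran from -0.80 to 0.81 in B6 (median -0.13) and from -0.56 to 0.45 in CAST (median -0.02). With pileup in place of fold enrichment both medians were above 0, at 0.07 and 0.08, so that no direction can be given for the family. Past 1.5-fold in the same direction in both strains there were 0 regions higher in males, where 0.35% of all regions were, and 0 higher in females, where 0.115% were. Of the 32 regions 10 were above 0 in B6 and 15 in CAST by fold enrichment, and 19 and 20 by pileup. In B6 the regions above 0 were 0 of 6 at Apoc1, 0 of 6 at Apoe and 1 of 7 at Apoa4 by fold enrichment, but 4 of 6, 4 of 6 and 5 of 7 by pileup. Apoh, picked out after its values were seen, was mostly above 0 on both scales, so that it lay apart from these genes by fold enrichment and not by pileup. Its 6 shared regions had centred log2 ratios of 0.07 to 0.81 in B6 (6 of 6 above 0, median 0.33) and of -0.10 to 0.45 in CAST (5 of 6, median 0.20) by fold enrichment. By pileup 5 of 6 were above 0 in B6 and 6 of 6 in CAST, with medians of 0.30 and 0.16. At the internal TSS, the strongest promoter DHS of Apoh, the centred ratio of fold enrichment was 1.26 in B6 and 1.12 in CAST, and that of pileup 1.49 (95% exact interval 1.15 to 1.95) and 1.36 (1.04 to 1.80). Intervals of pileup ratios cover counting error only and not the difference between animals.

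Of all 32 regions, 2 passed 1.5-fold between the sexes in B6 and 0 in CAST, where 3.94% and 4.2% of all shared regions did, so that these counts are near the background. The intronic Apoh element had a centred log2 male to female ratio of 0.81 in B6 and 0.04 in CAST, with centred pileup ratios of 1.68 (1.29 to 2.22) and 1.05 (0.765 to 1.47). The region at the 3′ end of Apoa1 lay the other way, at -0.80 in B6 and -0.50 in CAST, with centred pileup ratios of 0.757 (0.603 to 0.952) and 0.804 (0.651 to 0.998). The summit of that region in B6 males is displaced, as described above.

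**Figure D5:**
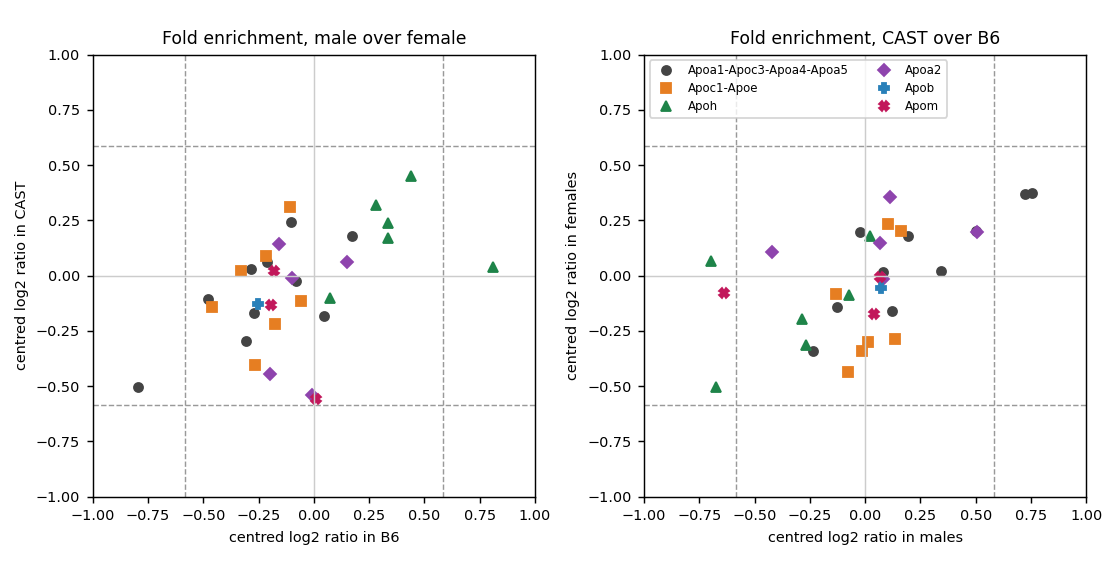
Centred log2 ratios of fold enrichment for the 32 regions found in all 4 lists, coloured by locus: male over female in B6 against CAST (left), and CAST over B6 in males against females (right), with dashed lines at 1.5-fold. Points gather around 0, no point lies beyond the dashed lines on both axes in the same direction, and the Apoh points lie to the right of 0 on the left panel, where most other points lie to the left on this scale but not by pileup.

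Strain-only regions were counted where both sexes held them. A region 9.4 kb upstream of Apoa5 (chr9:46067191-46067686, intergenic) was found in both B6 lists and neither CAST list, and 0 were found in both CAST lists alone, where 3.32% and 3.62% of all regions were, so that neither count is above the background. The B6 region had a fold enrichment of 2.74 in B6 males and 2.23 in B6 females, pileups of 242 and 103 reads, and a background 5.71 and 3.27 times the genome-wide one. Among the 32 shared regions 0 were past 1.5-fold higher in CAST in both sexes (2.15% of all regions) and 0 higher in B6 in both (0.868%). The centred log2 CAST to B6 ratios had a median of 0.05 in males and -0.01 in females by fold enrichment, and of -0.05 and -0.03 by pileup. CAST reads were mapped to a genome with CAST variants written in, and what that step did to single regions was not tested.

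Between strains 5 of the 32 regions passed 1.5-fold in males and 0 in females, where 8.24% and 8.36% of all shared regions did. The intron of Sik3 12.7 kb upstream of Apoa1 (chr9:46022896-46024315) had fold enrichments of 5.67 in B6 males, 4.54 in B6 females, 9.90 in CAST males and 6.95 in CAST females, with pileups of 246, 123, 469 and 120 reads. Both CAST values were above both B6 values on the fold scale. The centred log2 CAST to B6 ratio was 0.72 in males and 0.37 in females, and the centred pileup ratios were 1.96 (1.68 to 2.30) and 1.33 (1.02 to 1.72). The promoter of Bud13, 14.3 kb downstream of the 5′ end of Apoa5, had centred log2 ratios of 0.76 and 0.38. Higher in B6 were the region beside the internal Apoh TSS (-0.67 in males and -0.50 in females), a region over a TSS of D17H6S53E 5.5 kb downstream of the 5′ end of Apom (-0.64 and -0.08), and the intronic Apoh element in males (-0.70) but not in females (0.06).

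Other genes of lipoprotein transport were read the same way. Of 13 further genes named for apolipoproteins or their receptors, editing or relatives, 7 had a promoter DHS in all 4 lists: Apoc2 and Apoc4, which share theirs and lie within the Apoc1-Apoe windows, Apof, Apoo, Apobr, Apobec1 and Clu. Apod and the 4 Apol genes had none in any list. Of 24 genes of secretion, remodelling and uptake, 18 had one in all 4 lists. Mttp, which loads lipid onto Apob, had fold enrichments of 14.2, 12.1, 15.6 and 14.3, above every promoter DHS of the 10 apolipoprotein genes. Among the further apolipoprotein genes Apoo, which encodes a mitochondrial protein, had 13.99, 7.30, 15.3 and 8.03, above Apoc3 in each list. Scarb1, the HDL receptor, had 7.94, 5.73, 9.89 and 8.12. Lpl, the lipase on which Apoc3 and Apoa5 act and which is made mainly outside the liver, had a promoter DHS in B6 males alone (3.23). All 12 genes of transcription factors known at apolipoprotein genes had a promoter DHS in all 4 lists, among them Hnf4a at 6.73, 4.93, 7.21 and 5.51. These shares stand beside 44.1% of all protein-coding genes, and the lists were chosen by gene name and known role, not at random.

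The position of the summit was also compared between the lists. The summits of the 4 lists lay within 100 bp of each other in 15 of the 32 shared regions (46.9%) and more than 500 bp apart in 5 (15.6%), against 54.5% and 3.98% of all shared regions. The median spread was 144 bp, compared with 91 bp. Of the 5 wide cases, 3 held more than 1 peak in some list, so that their spread follows from which peak was the highest: the Apob promoter (842 bp, where the summits at the TSS lay 48 to 81 bp into the gene in every list), the 5′ end of Apoh (1004 bp) and the promoter of Nr1i3 (847 bp). Over the 28 shared regions with 1 peak in each list the median spread was 84 bp and 2 were more than 500 bp apart (7.14%), against 90 bp and 2.502% of all such regions, so that the wider median rests on regions with several peaks. Those 2 were the region at the 3′ end of Apoa1 (989 bp) and the Apoa4 promoter (1013 bp), while Apoc3 (54 bp), the Apoa2 upstream element (51 bp) and the Sik3 intron (34 bp) kept their summits.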

How the data were processed

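DNase-seq was performed on liver nuclei, and titles of the libraries gave the groups. With Bowtie2 the authors mapped unique reads, those of B6 to mm9 and those of CAST to mm9 carrying CAST variants, converted CAST coordinates back, and called peaks with MACS2 on the pooled libraries of each group. For each peak the authors deposited the fold enrichment, a ratio of summit pileup to local background with 1 added to both. The −log10 p-value and the summit position of each peak are also deposited. The MACS2 scores were used as deposited, namely the −log10 q-value and 10 times that value, truncated.

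Pileup and local background were recovered from fold enrichment and p-value. In each list at least 99.86% of the pileups were whole to within 0.02, and none was recovered for 6 peaks of B6 males and 1 of CAST males. The commonest background of a list was taken as genome-wide. TSS were 75543 start sites of 26225 genes (GENCODE, mm9). A region with several peaks in a list took the highest. Ratios between lists were log2 values less their median over all regions found in all 4 lists. Counts needed for a peak used the Poisson distribution and the weakest p-value of that list. Exact 95% intervals of pileup ratios cover counting error only. With 1 pooled list per group no test was run between lists, and p-values served to recover pileups, to find the pileup a call needs and to filter thinned lists.

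Members and lists were chosen with earlier results of these data known. The text names each member with its promoter DHS and up to 5 further regions of its window by mean percentile of fold enrichment, regions listed in 1 sex or strain only, regions past 1.5-fold, and up to 5 genes of each list. Regions that passed in a single contrast, the Apoh direction, Apoo, the Apoe exon region and those with displaced summits were named after their values were seen. Alternatives were 50% overlap, a stricter threshold, equal-sized lists, lists thinned to the lowest depth, windows of 10 and 50 kb, a promoter limit of 1 kb, 5′ ends only, pileup, quantile scaling and regions with 1 peak per list. Analyses used Python 3.11.15, numpy 2.4.6, pandas 2.3.3, SciPy 1.17.1, pysam 0.24.0 and matplotlib 3.10.9. The recovery of pileups and the joining of peaks that overlap by 1 bp were tested on simulated data, and the other steps were not.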

Additional observations from a re-analysis of the deposited data

Results flagged for a closer look

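The intronic Apoh element 42.3 kb from the 5′ end of the gene, and 3769 bp from its nearest annotated TSS, differed by strain in males. It was lower in CAST than in B6 in males and near equal between strains in females. It was picked out because the signs of the 2 ratios differ. Its centred log2 CAST to B6 ratio of fold enrichment was -0.6963 in males and 0.06463 in females, from values of 11.6 and 7.60 in B6 and CAST males and 4.96 and 6.15 in B6 and CAST females. The centred pileup ratio was 0.635 in males (95% exact interval 0.513 to 0.785) and 1.01 in females (0.695 to 1.45). The interval of the females includes 1, so that no opposite direction was shown, and with a single list per group the difference was not tested.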

How the results depend on the processing

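The counts, ratios and medians for the 10 genes were computed under 77 alternatives, of which 71 gave a value near the reported one and 6 did not. The stricter threshold (−log10 q of at least 15.7) left 12 of 39 regions found in all 4 lists (30.8%, below the 34.1% of all regions, where the reported share was above), 4 genes with a promoter DHS in all 4 lists, and male to female count ratios of 1.941 in B6 and 2.188 in CAST, above the 1.863 and 2.032 of all regions, where the reported ratios were below. Windows of 50 kb brought in 1 region past 1.5-fold between strains in both sexes. By recovered pileup the median centred male to female ratio was 0.07334 in B6 and 0.07601 in CAST, of the other sign than by fold enrichment. The CAST to B6 median in males was -0.05 in place of 0.05. In CAST the male to female median lay near 0, and its sign also turned with fold enrichment kept, over regions with 1 peak in each list. The other alternatives gave 24 to 43 regions found in all 4 lists, 36.6% to 57.1% of the regions and above the genome's share in each, and 6 to 8 genes. Without the shallow female CAST list, an alternative chosen after seeing the data, these counts were 38 and 9. The share of peaks on a raised background, with windows or loci changed after seeing the data, ranged from 55.1% to 70.3% in B6 males and from 38.7% to 52.5% in CAST females. Among 368 ratios of single regions, 360 moved by less than counting error, 8 by more, all under pileup, and 0 turned sign past 1.5-fold. Of the 368, 112 came from regions with 1 peak in each list, where values stay and only the centring shifts, so that they could hardly move. The 8 moves fell among the 128 ratios by pileup. No paired analysis was possible because each list pools its libraries, and no replicate could be left out for the same reason.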

Other observations

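Just outside the windows, 35590 bp from the nearest TSS of Apoh, a region (chr11:108168347-108169078) was past 1.5-fold higher in B6 in both sexes. Its fold enrichment was 10.96 in B6 males, 7.29 in B6 females, 4.21 in CAST males and 3.08 in CAST females, and the centred log2 CAST to B6 ratio was -1.46 in males and -1.49 in females. It was the only region within 50 kb of the 10 genes to do so, was named after its values were seen, and was not tested. Over the genome 0.868% of shared regions lay past that limit in that direction.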
